A study of Mus musculus with 24 samples.

Results

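Transcripts of 9 genes that mark B lymphocytes were followed in mouse mammary tissue: Ms4a1, Cd79a, Cd79b, Pax5, Blk, Cd22, Pou2af1, Cr2 and Igj. They were taken as every non-control probe whose gene name in the array files equals one of these symbols, which gave 12 probes of the 55681 measured, for 9 of 34797 gene names. Cd79a, Pax5 and Cr2 each had 2 probes and the other genes 1. All mice were female and 8 to 9 weeks old at exposure, and the tissue was frozen mammary gland. BALB/c, an inbred laboratory strain sensitive to radiation-induced mammary cancer, received a single whole-body X-ray dose of 10 cGy (low-dose ionizing radiation, LDIR) or sham exposure, with tissue taken at 2, 4 or 8 weeks. SPRET/EiJ, an inbred strain derived from Mus spretus and more resistant, received 10 cGy or sham exposure with tissue taken at 4 weeks. The 8 groups held 3 biological replicates each, lettered A, B and C, on 24 one-colour arrays.

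B lymphocytes recognise antigen through a surface immunoglobulin that signals through the Cd79a and Cd79b heterodimer. Cd22 and the kinase Blk set the strength of that signal, Cr2 (complement receptor 2) lowers the threshold for complement-coated antigen, and Ms4a1 encodes CD20. Pax5 and the coactivator Pou2af1 belong to the transcription machinery of the lineage, and Igj encodes the J chain that joins polymeric IgM and IgA, made mainly by antibody-secreting cells. The mouse mammary fat pad encloses a lymph node, whose follicles are rich in B lymphocytes. The sources used here do not say whether nodes were removed, and the part of a node in any result below was not tested.

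A level here is the log2 intensity of a probe minus the 75th percentile of its own array, so that 0 is the signal at that percentile and a difference of 1 between arrays is a doubling. Levels were compared between arrays and never between probes. The arrays lay on 3 slides, of which the third held all SPRET/EiJ arrays and BALB/c 8-week LDIR arrays B and C. The share of spots well above background was 58.2% on SPRET/EiJ LDIR array C and 65.5% to 73.4% on the other 23. The median processed intensity of negative controls was 4.86 on BALB/c 8-week sham array A, 3.77 on SPRET/EiJ LDIR array C and at most 2.98 elsewhere. On every one of the 24 arrays 7 of the 12 probes exceeded background clearly, and the second Pax5 probe did so on only 2.

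The probes lie in mm9 on chromosome 19 for Ms4a1, 7 for Cd79a and Cd22, 11 for Cd79b, 4 for Pax5, 14 for Blk, 9 for Pou2af1, 1 for Cr2 and 5 for Igj. Each is 60 bases long, and 3 of them span an intron. The sequences of 4 are given, those of the 3 that span an intron and that of the brighter Pax5 probe. The second Cd79a probe (chr7:25684357-25684614, plus strand) covers 258 bases of the genome, and the brighter Pax5 probe (chr4:44658421-44658480, minus strand) is contiguous. The second Pax5 probe (chr4:44550354-44582908, minus strand) spans 32555 bases, and the Blk probe (chr14:63997333-63998470, minus strand) spans 1138.
Cd79a, second probe: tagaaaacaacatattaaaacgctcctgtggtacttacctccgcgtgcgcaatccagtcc
Pax5, brighter probe: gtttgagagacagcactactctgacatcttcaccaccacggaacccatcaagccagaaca
Pax5, second probe: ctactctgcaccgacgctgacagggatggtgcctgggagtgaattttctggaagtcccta
Blk: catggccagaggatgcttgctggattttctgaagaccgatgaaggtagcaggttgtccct

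The B lymphocyte genes were far higher on 3 single arrays than on the other 21. These were BALB/c 8-week sham array A, BALB/c 8-week LDIR array B and SPRET/EiJ LDIR array A, so they came from 3 groups, both treatments and both strains. With each gene centred on its mean over all arrays, the mean over the 9 genes was 4.02 to 4.32 on the 3 arrays and -1.09 to 0.49 on the others, a gap of 3.53 on the log2 scale. The same 3 arrays stood apart under every alternative processing tried, with gaps from 2.57 to 3.66. They were recognised by their values alone and form no group of the study, so nothing was averaged or tested over them. Results that rest on them are given with and without them, an alternative chosen after seeing the data. As the members' own values picked these arrays, leaving them out narrows the spread of the members. Standard errors, calls and p-values of members without these arrays therefore only describe. The share of all probes printed beside them is no like measure. In whole tissue, more B lymphocytes and more B lymphocyte RNA per cell cannot be told apart.

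**Figure D1:**
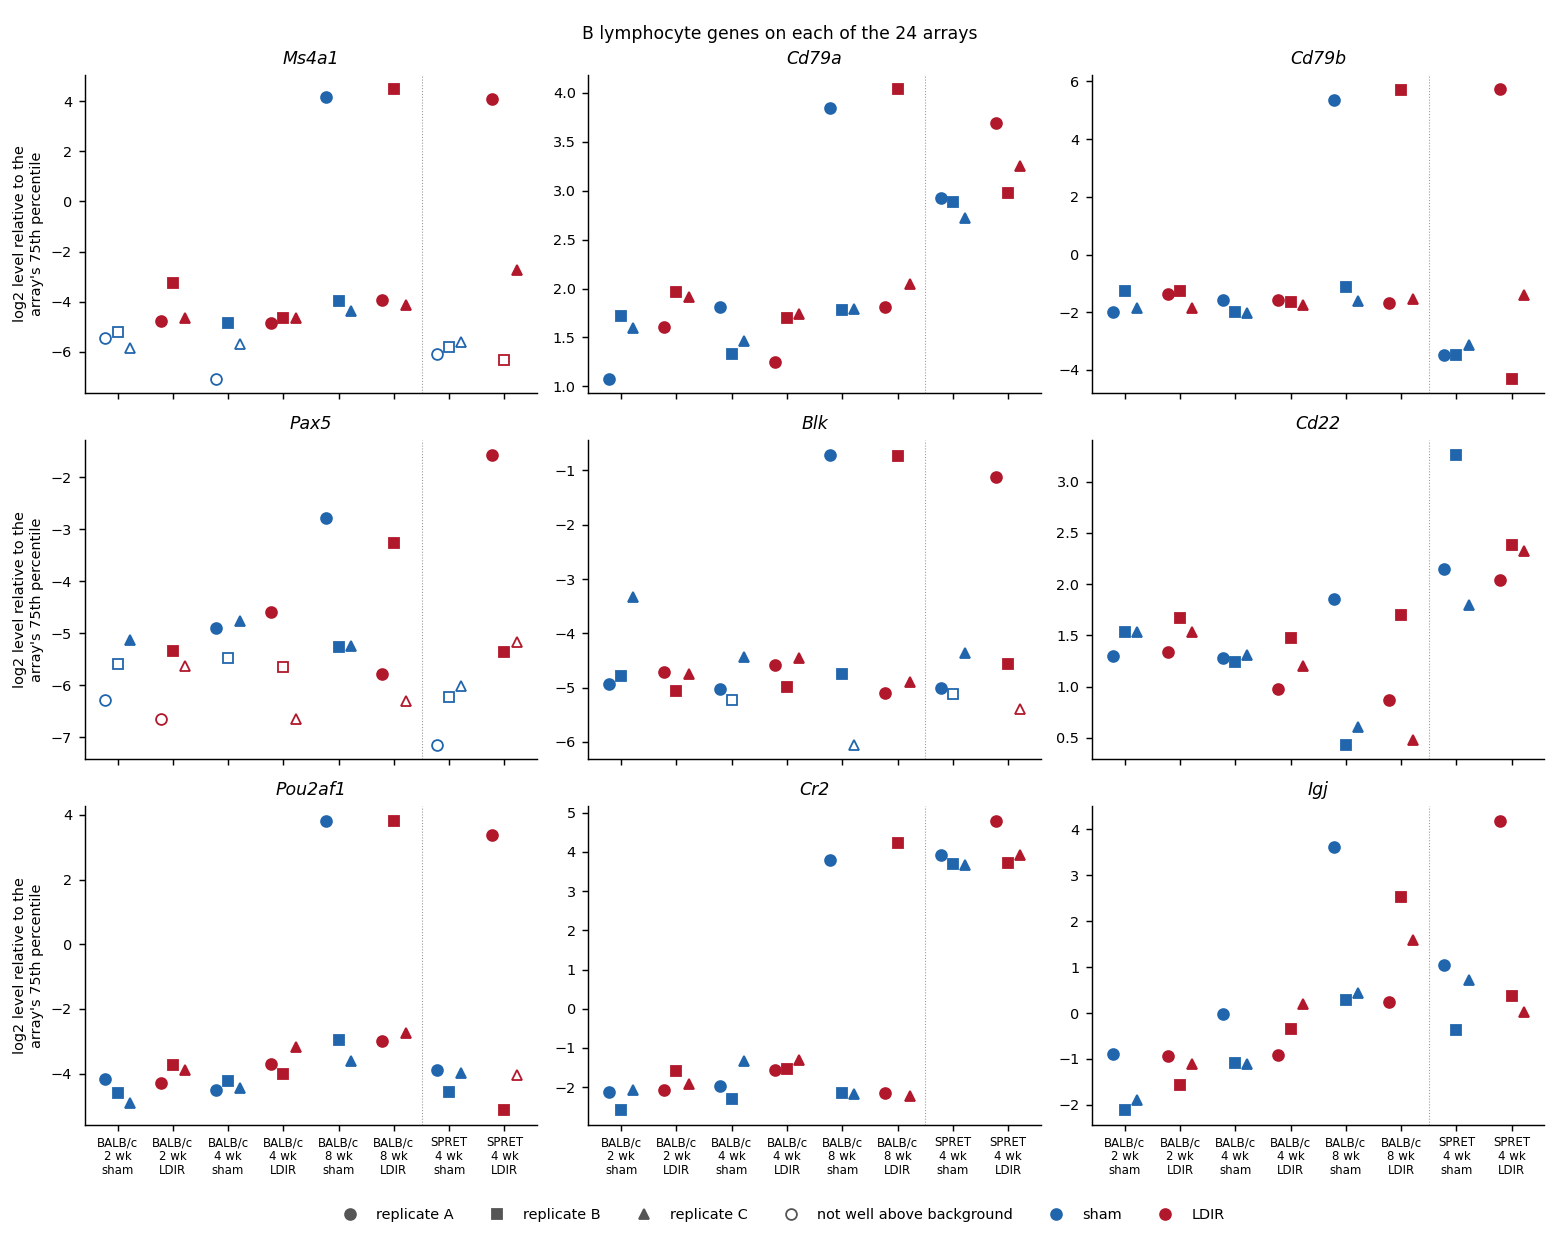
Level of each B lymphocyte gene (brightest probe; vertical axis, log2 intensity relative to the array's 75th percentile) on each of the 24 arrays, by group (horizontal axis) with replicate letter as symbol and treatment as colour. Open symbols were not well above background, and in every panel but that of Cd22 BALB/c 8-week sham A, BALB/c 8-week LDIR B and SPRET/EiJ LDIR A lie above all other arrays of their strain.

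Among the surface proteins of mature B lymphocytes, the level of Ms4a1 was 4.17 on BALB/c 8-week sham A, 4.49 on BALB/c 8-week LDIR B and 4.08 on SPRET/EiJ LDIR A. The other 16 BALB/c arrays ran from -7.08 to -3.26 with a median of -4.71, and the other 5 SPRET/EiJ arrays from -6.32 to -2.72. Within BALB/c the lower of the 2 high arrays was thus 7.43 above the highest of the rest on the log2 scale. Only 11 of those 16 BALB/c arrays and 1 of those 5 SPRET/EiJ arrays were well above background for Ms4a1, so much of the ordinary tissue gave only an upper bound for CD20 transcripts.

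Cd79b, the beta chain of the receptor's signalling unit, moved the same way and was above background everywhere. Its level was 5.37, 5.71 and 5.74 on the same 3 arrays in the same order, against -2.05 to -1.12 on the other BALB/c arrays and -4.31 to -1.41 on the other SPRET/EiJ arrays. The highest of the latter was SPRET/EiJ LDIR array C, which was also the highest of them for Ms4a1, at -2.72.

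Cd79a, the alpha chain, gave different pictures with its 2 probes. The second probe, printed above, was at 0.46, 0.51 and -0.26 on the 3 arrays and at -4.58 to -3.09 on the rest of BALB/c and -4.13 to -3.49 on the rest of SPRET/EiJ. The brighter probe was at 3.84, 4.04 and 3.70, against 1.08 to 2.05 and 2.72 to 3.26. Both were highest on the same arrays, but the brighter probe stood only 1.80 above the next BALB/c array where the second stood 3.55 above it, and their Pearson correlation over 24 arrays was 0.73. The brighter Cd79a probe holds 21 A among its 60 bases with a run of 6.

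Cr2 separated the arrays of BALB/c and hardly those of SPRET/EiJ. On the 2 high BALB/c arrays it was at 3.80 and 4.23, against -2.59 to -1.32 on the other 16. In SPRET/EiJ it was at 4.80 on LDIR array A and between 3.66 and 3.93 on the other 5. Every SPRET/EiJ array therefore carried Cr2 signal at or near the level that BALB/c reached on 2 of 18 arrays. The second Cr2 probe followed the first with a correlation of 0.995 over 24 arrays, at 1.66 and 2.07 on the high BALB/c arrays, -3.95 to -3.08 on the others, 2.98 on SPRET/EiJ LDIR A and 1.84 to 2.11 on the remaining SPRET/EiJ arrays.

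Cd22, an inhibitory co-receptor, was the exception. It was at 1.86 and 1.70 on the 2 BALB/c arrays, only 0.03 above the highest of the other 16, which ran from 0.44 to 1.68. On SPRET/EiJ LDIR A it was at 2.04, inside the 1.79 to 3.26 of the other SPRET/EiJ arrays. Of the 12 probes the one for Cd22 had the most A, 29 of 60 bases (48.3%), with a run of 6, and the part of its composition in this flat profile was not tested.

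The intracellular members separated the arrays as the surface proteins did. Pou2af1, the octamer coactivator, was at 3.82, 3.83 and 3.37, against -4.90 to -2.75 on the other BALB/c arrays and -5.13 to -3.89 on the other SPRET/EiJ arrays. Blk, a Src-family kinase of the B-cell receptor, was at -0.71, -0.74 and -1.13, against -6.05 to -3.32 and -5.40 to -4.36. Pax5, which holds cells in the B lineage, was at -2.78, -3.26 and -1.57, against -6.64 to -4.60 and -7.14 to -5.18. Pax5 was well above background on 8 of the other 16 BALB/c arrays and 1 of the other 5 SPRET/EiJ arrays. Its second probe was above background on only 2 arrays, SPRET/EiJ LDIR A at -3.50 and BALB/c 8-week LDIR A at -5.70, and not on either of the 2 high BALB/c arrays.

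Igj was at 3.61, 2.51 and 4.18 on the 3 arrays. The other 16 BALB/c arrays covered -2.12 to 1.58, where the highest value was BALB/c 8-week LDIR C, and the other SPRET/EiJ arrays -0.38 to 1.05.

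Promoter sequence, 250 bases before the start of the transcript in RefSeq (GRCm38.p6), was given for 6 of the 9 genes: Cr2, Pax5, Igj (listed as Jchain), Cd79a, Cd22 and Pou2af1. Both strands were searched for letters tied to factors of the B lineage. The octamer ATTTGCAT, which Pou2af1's partner proteins bind, was in 0 of the 6 and in 1.6% of all 32851 promoters. The same letters without the last base, ATTTGCA and so found wherever the octamer is, were in 1 of 6, Pou2af1 itself, and in 3.56% of all. A palindrome bound by the factor Ebf1 was in 1 of 6, Cd22, and in 0.779% of all, and the letters GAGGAAGT of PU.1 in 0 of 6 and 2.44% of all. The 2 promoters with a match are given below. Whether a match goes with the array pattern was not tested. Capitals mark the match, read on the minus strand of the gene for Pou2af1, 231 to 225 bases before the start, and on its plus strand for Cd22, 49 to 40 bases before the start.
Pou2af1, chr9:51213440-51213689, plus strand: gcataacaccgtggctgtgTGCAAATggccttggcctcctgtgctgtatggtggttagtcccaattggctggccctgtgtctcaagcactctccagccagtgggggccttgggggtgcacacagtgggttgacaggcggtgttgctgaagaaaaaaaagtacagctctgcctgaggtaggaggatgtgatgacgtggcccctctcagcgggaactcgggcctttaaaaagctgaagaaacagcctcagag
Cd22, chr7:30879029-30879278, minus strand: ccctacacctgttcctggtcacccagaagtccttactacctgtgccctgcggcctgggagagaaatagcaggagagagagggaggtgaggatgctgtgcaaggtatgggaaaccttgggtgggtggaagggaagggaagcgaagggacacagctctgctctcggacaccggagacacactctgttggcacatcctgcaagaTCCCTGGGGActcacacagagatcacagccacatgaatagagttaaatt

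Other genes of the B lineage, of T lymphocytes and of lymph node stroma were high on the same arrays. Of all 55519 probes measured on every array, 7.48% were highest on the 2 BALB/c arrays among BALB/c and on SPRET/EiJ LDIR A among SPRET/EiJ, and 2.15% were so by over 2-fold on both sides. Among the brightest probes of the 9 members, 8 did the first and 5 the second, which describes the genes by which these arrays were recognised. For the other lists the counts were 28 and 27 of 30 further B-lineage and receptor genes, 18 and 16 of 18 T lymphocyte genes, and 7 and 6 of 9 genes of lymph node stroma and vessels. They were 4 and 2 of 10 plasma cell genes, 2 and 1 of 6 early B precursor genes and 3 and 1 of 12 macrophage and dendritic genes. None of 10 mammary epithelial, 8 white adipocyte, 6 skeletal muscle or 5 erythrocyte genes did so. The lists are not fully separate. Ltb is in the B-lineage and stromal lists, Cd38 in the B-lineage and plasma cell lists, and Il7r in the T lymphocyte and early B precursor lists.

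In the B-lineage list the adaptor Blnk was at 4.69, 4.91 and 4.46 on the 3 arrays, against at most 2.33 on the others, and the kinase Btk at 1.72, 2.00 and 0.83, against at most -0.18. Cxcr5, which guides B cells into follicles, was above background on 4 arrays only and was at 2.48, 2.20 and 2.31 on these 3, against at most -2.12. Tnfrsf13c, the receptor for the survival factor BAFF, was at -0.67, -0.73 and -0.98, against at most -3.59. Ebf1, a B-lineage factor that adipocyte precursors also express, was not highest there, at 1.82, 2.09 and 1.14 against 2.16 to 3.13 on the rest of BALB/c. The mean centred level of the 30 genes was 3.95 to 4.15 on the 3 arrays and -0.93 to -0.23 on the others.

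The T-cell receptor chain Cd3e was at 4.61, 4.99 and 4.54, against at most 2.82 on the other arrays, Cd3g at 3.40, 3.87 and 2.60, against at most -1.06, and the kinase Lck at 5.51, 6.16 and 5.95, against at most 0.92. The mean centred level of the 18 T lymphocyte genes was 4.46 to 4.87 on the 3 arrays and -1.13 to -0.06 on the others. Among stromal genes of lymph nodes, the chemokine Ccl19 was at 1.76, 2.12 and 2.99, against at most 0.03, and the follicle chemokine Cxcl13 at 5.15, 5.41 and 1.75, against at most 0.55. Glycam1, a mucin of high endothelial venules that milk-producing epithelium also makes, was at 7.43 and 7.51 on the 2 BALB/c arrays, against at most -1.44 on the other BALB/c arrays. It was at -6.29 on SPRET/EiJ LDIR A, below the highest of the other SPRET/EiJ arrays. The mean centred level of the 9 stromal and vessel genes was 2.61 to 5.27 on the 3 arrays and -1.26 to 0.19 on the others.

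Plasma cell genes were mixed. 2010001M09Rik, at 1.58, 1.57 and -0.18 on the 3 arrays against at most -3.23, and Cd38, at 0.64, 0.67 and 1.08 against at most -0.39, were over 2-fold higher there. Xbp1 was lower on the 3 arrays (5.49, 5.33 and 5.07) than on any other, where it ran from 5.69 to 6.70, and Pigr, the epithelial receptor for polymeric immunoglobulin, was at 5.45, 4.21 and 6.37 against 4.21 to 6.81. Prdm1, the plasma cell regulator, was highest on these arrays within each strain, at -0.33, -0.31 and -0.91, by less than 2-fold. The mean centred level of the 10 genes was 0.51 to 0.76 on the 3 arrays, above the -0.39 to 0.28 of the others. Immunoglobulin heavy and light chain genes, 10 of the 20 names first written for this list, had no probe under the names searched. Of the stromal list, Ccl21a, Ccl21b and Fdcsp had none either. White adipocyte genes were lowest there, with a mean of -1.64 to -1.09 against -0.29 to 0.61, and epithelial genes overlapped, at -1.83 to -0.20 against -2.10 to 1.26. Macrophage and dendritic genes were at 0.09 to 0.68 against -0.82 to 0.60 and early B precursor genes at 0.97 to 2.13 against -0.58 to 0.77. Skeletal muscle and erythrocyte genes overlapped, at -2.77 to 4.04 against -3.00 to 7.05 and -1.27 to 0.32 against -1.23 to 1.44.

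**Figure D2:**
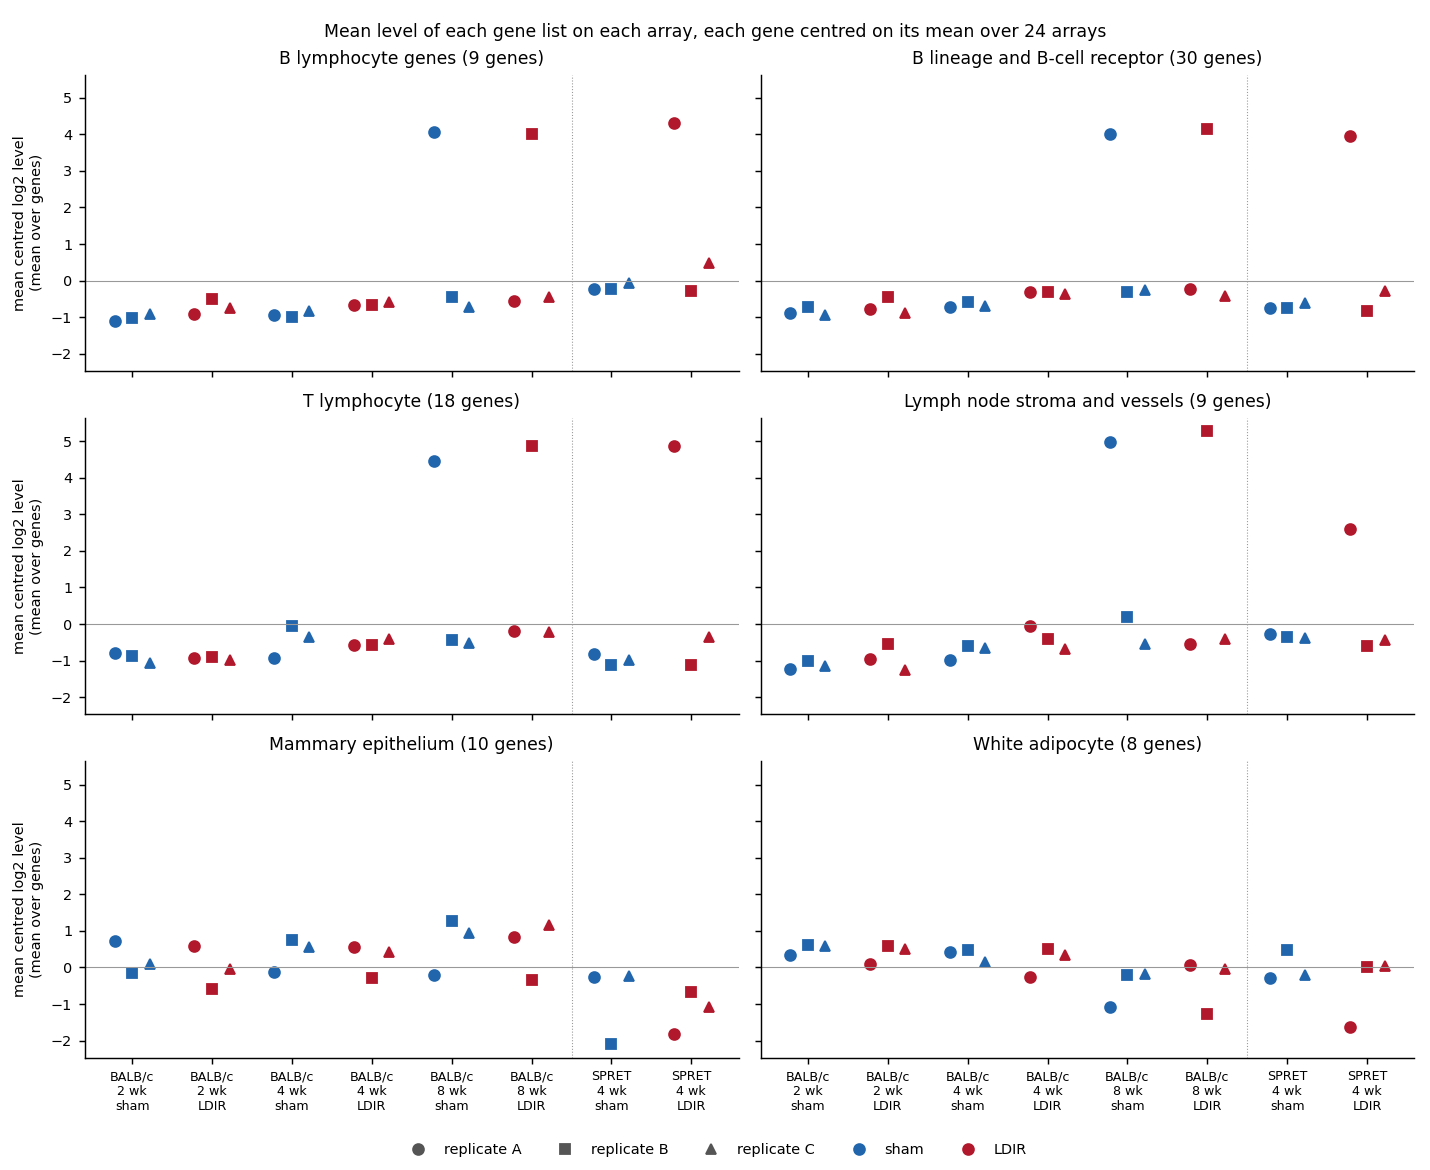
Mean level of the 9 B lymphocyte genes and of 5 other gene lists (vertical axis, log2, each gene centred on its mean over 24 arrays) on each array by group, with replicate letter as symbol and treatment as colour. The 3 arrays that stood apart are 4.02 or higher for the B lymphocyte genes and at most -1.09 for the adipocyte genes.

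Across arrays the members rose together mainly through these arrays. Over the 18 BALB/c arrays the 36 pairs of members had a median Pearson correlation of 0.81, and 29 pairs were above 0.5. Over the 16 BALB/c arrays without the 2 high ones the median was 0.01, with 3 pairs above 0.5 and 17 below 0. The median correlation over 18 arrays thus rested on 2 arrays, while Pou2af1 with Igj (0.79) and Ms4a1 with Pou2af1 (0.71) stayed correlated without them. Ms4a1, Pax5 and Blk were above background on 11, 8 and 14 of the 16. Likeness to the mean member level over the 18 BALB/c arrays was ranked for 19694 other genes above background on all of them. Among the 10 most alike were 2010001M09Rik of the plasma cell list (r 0.993), H2-Ob (0.993), Ccl19 (0.992), Cd37 (0.991), Haao (0.990), Arhgap4 (0.990), Acap1 (0.989), Cd6 (0.988) and Marco (0.987). Over the 16 arrays their correlations were 0.76, 0.62, 0.65, 0.75, 0.60, 0.47, 0.37, 0.61 and 0.01 in that order, so Marco, a scavenger receptor of macrophages, was alike only through the 2 arrays.

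The question of the study was what LDIR changes in the gland, and in BALB/c at 2 weeks the B lymphocyte genes gave 1 call at its threshold of unadjusted p under 0.05 and over 1.5-fold, against 3.05% of all probes (2.08% of all probes were called higher). Ms4a1 was at -4.77, -3.26 and -4.66 with LDIR, well above background on all 3 arrays, and at -5.44, -5.21 and -5.85 with sham, above background on none. The groups did not overlap, and the measured means of -4.23 and -5.50 differed by 1.27 (SE 0.43, 95% interval 0.23 to 2.32, limma adjusted p = 0.869 over all probes). With sham arrays raised to the lowest signal well above background, the group means of Ms4a1 were 2.14-fold apart. This describes the measured means and is no lower limit of an LDIR effect. The groups of Cr2 did not overlap either, at -2.06, -1.59 and -1.92 against -2.13, -2.59 and -2.07, a difference of 0.41 (95% interval -0.11 to 0.93). Its nearest arrays almost met, at -2.064 and -2.066. The share of all probes whose groups do not overlap is not given here, so non-overlap here and below only describes these arrays. Pou2af1 was at -4.30, -3.74 and -3.89 against -4.18, -4.61 and -4.90, a difference of 0.59 (-0.01 to 1.19) with overlap of 1 array. The median difference of the 9 genes was 0.37, against -0.02 over all probes. Of the 30 further B-lineage genes 2 were called by the same rule. Faim3 rose by 1.26 (SE 0.39), while Cxcr5 was called on signal that was above background on 0 of the 6 arrays, so no size is given for it. Irf4 of the plasma cell list rose by 1.02 (SE 0.39), while 0 of the T lymphocyte and stromal genes were called. The call for Ms4a1 was lost under normexp background correction, where the difference was 0.18. The offset of 50 added there shrinks log2 differences of dim probes. It was also lost under quantile normalization, by the methods' t-test and without sham array A or C.

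At 4 weeks in BALB/c 1 member was called, against 4.83% of all probes (3.39% were called higher), and it was another one. Pou2af1 was at -3.70, -4.00 and -3.18 with LDIR and at -4.49, -4.23 and -4.46 with sham, with no overlap. The difference was 0.77 (SE 0.24, 95% interval 0.18 to 1.35, limma adjusted p = 0.775). Ms4a1 again did not overlap, at -4.84, -4.66 and -4.65 against -7.08, -4.85 and -5.70, but the nearest arrays of the groups almost met, and its difference of 1.16 had an interval from -0.13 to 2.45. The median of the 9 genes was 0.22, against 0.02 over all probes. Among related genes 3 of 30 of the B-lineage list were called higher, Faim3 by 0.69 (SE 0.24) and Fcrla and Cd180, whose sham signal was above background on 0 of 3 arrays. Cd209b (1.09, SE 0.31) of the stromal list and 6 of 12 macrophage and dendritic genes rose, and the basal keratins Krt14 (-0.93, SE 0.30) and Krt5 (-0.73, SE 0.29) of the epithelial list fell, all by unadjusted p. Rag2 of the early B precursor list was called higher on signal above background on 0 arrays. All 3 LDIR arrays were on the second slide and 2 of the 3 sham arrays on the first. With slide as a fixed block the Pou2af1 difference was 0.83 and no longer called, and under normexp it was 0.00. It was also not called without sham array A or LDIR array C.

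At 8 weeks 0 of 9 members were called by limma, against 1.92% of all probes, and 0 had an unadjusted p under 0.05, against 1.97%, in a comparison with a high array on either side. Ms4a1 was at 4.17, -3.99 and -4.38 with sham and -3.92, 4.49 and -4.15 with LDIR, so its difference of 0.21 had an interval from -7.79 to 8.21. The intervals of Cd79b (-6.73 to 6.62) and Pou2af1 (-6.29 to 6.83) were nearly as wide, and these arrays could not show a change of several fold. The median of the 9 was 0.13, against -0.14 over all probes. Without the 2 high arrays, with 2 arrays left in each group, Pax5 fell by 0.79 (SE 0.25, limma adjusted p = 0.968), against 4.35% of all probes called. The 2 LDIR arrays were then at -5.78 and -6.31, the second not above background, and the sham arrays at -5.26 and -5.25. The other 8 members were not called, with differences from -0.25 for Cd79b to 0.54 for Igj.

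Over all 3 times in BALB/c, with time in the model, 0 of 9 members were called by limma, against 1.16% of all probes, and 0 had an unadjusted p under 0.05, against 3.34%. Without the 2 high arrays, Ms4a1 rose by 0.95 (SE 0.30) and Pou2af1 by 0.61 (SE 0.15), against 1.74% of all probes, and neither passed after adjustment (limma adjusted p = 0.609 for both). The arrays left out were picked by the members themselves, so these member values only describe. Faim3 (0.87, SE 0.23) of the B-lineage list rose in the same fit and Fcrla was called higher, and the median of the 9 members was 0.19, against 0.00 over all probes. Cr2 differed by 0.30, under the fold threshold. The LDIR effect was not shown to differ between times for any member (F test, 0 of 9 by unadjusted p, against 3.74% of all probes, and 0 without the 2 arrays, against 4.72%).

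**Figure D3:**
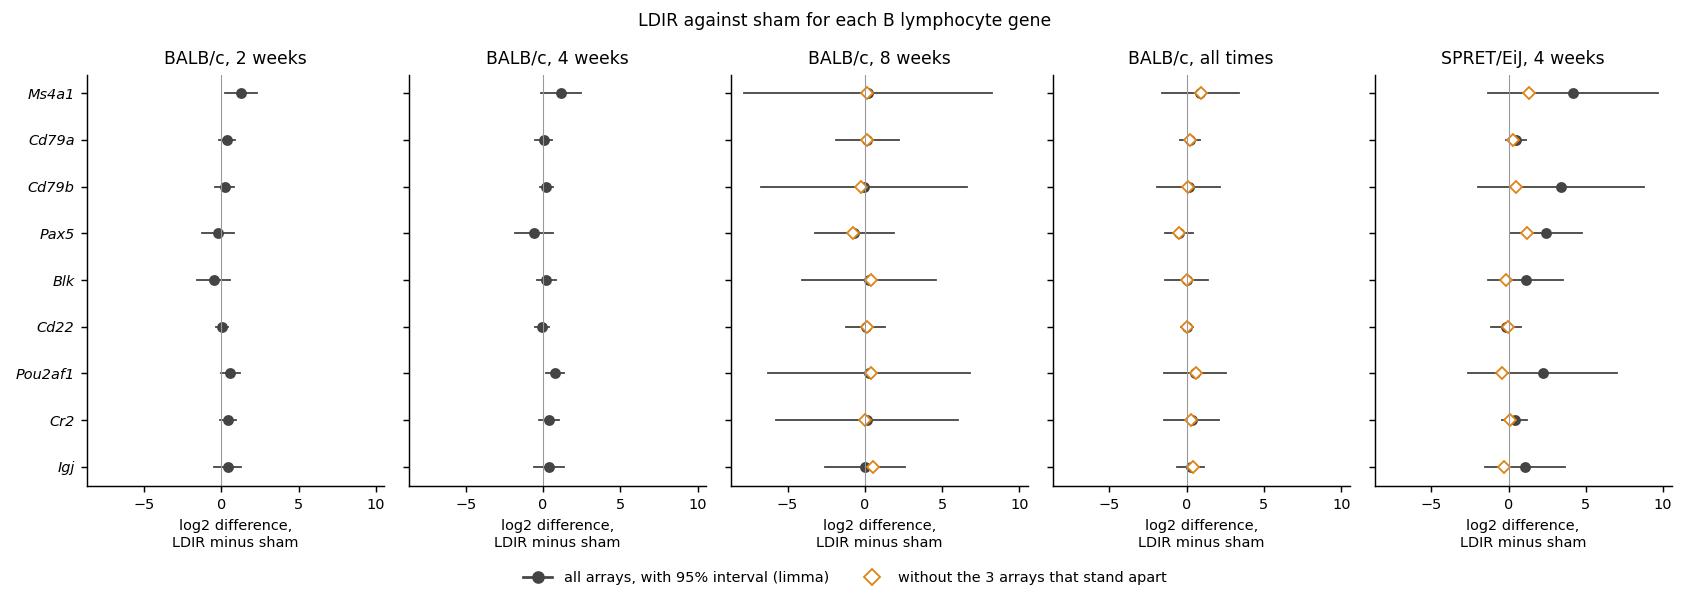
Difference of each B lymphocyte gene between LDIR and sham (horizontal axis, log2 difference) in BALB/c at each time and over all times and in SPRET/EiJ. Filled points with bars are limma estimates with 95% intervals over all arrays and orange diamonds the estimates without the 3 arrays that stood apart, and the bars at 8 weeks and in SPRET/EiJ, which hold such arrays, reach several log2 units for Ms4a1, Cd79b and Pou2af1.

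In SPRET/EiJ 1 member was called after LDIR, against 2.21% of all probes. Pax5 was at -1.57, -5.36 and -5.18 with LDIR, above background on the first 2, and at -7.14, -6.23 and -6.02 with sham, above background on none. The measured means of -4.04 and -6.47 differed by 2.43 (SE 0.99, 95% interval 0.08 to 4.78, limma adjusted p = 0.972). With sham arrays raised to the lowest signal well above background, the means were 2.52-fold apart. This is no lower bound, as not every LDIR array was itself above background. The call was lost without any 1 of the 3 sham arrays, under normexp or quantile normalization, by the methods' t-test and with the replicate block. Ms4a1 was not called, with LDIR arrays at 4.08, -6.32 and -2.72, of which 2 were above background, and sham arrays at -6.09, -5.81 and -5.63, of which 0 were. Its means of -1.66 and -5.84 were 13.1-fold apart with the sham arrays raised in the same way, again no lower bound. The measured difference had an interval from -1.30 to 9.67 and was 1.32 without LDIR array A. Cd79a did not overlap on its brighter probe, at 3.70, 2.98 and 3.26 against 2.92, 2.88 and 2.72, and did on its second probe. The median of the 9 was 1.13, against 0.03 over all probes. The B-lineage list had a median of 1.38 and the T lymphocyte list of 2.42, with 0 of 30 and 0 of 18 called.

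Without SPRET/EiJ LDIR array A the median of the 9 members was 0.06, against 0.06 over all probes. Pax5 was still called, at 1.20 (SE 0.38, limma adjusted p = 0.982), against 3.77% of all probes, with 1 of its 2 LDIR arrays and 0 of 3 sham arrays above background. The B-lineage median fell to 0.10, with Vpreb3, a precursor and B-cell receptor chaperone, called at 1.24 (SE 0.34), and the T lymphocyte median to 0.16. A difference between the strains in the measured LDIR effect at 4 weeks was called for 1 member, against 3.59% of all probes. This was Pax5, at -3.01 (BALB/c minus SPRET/EiJ, SE 1.23, limma adjusted p = 0.955). Without that array the difference for Pax5 was -1.78 and Pou2af1 was called too, at 1.21 (SE 0.48), against 4.56% of all probes.

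The strain comparison at 4 weeks, made by the study at an unadjusted p under 0.001 and over 1.5-fold, gave 3 of 9 members in sham tissue, against 8.89% of all probes. Cr2 was at -1.97, -2.31 and -1.35 in BALB/c and at 3.92, 3.69 and 3.66 in SPRET/EiJ, lower in BALB/c on every array (difference -5.63 on the log2 scale, SE 0.27, limma adjusted p = 0.000125). The second Cr2 probe differed by -5.59 (SE 0.20). Cd79a was lower in BALB/c by its brighter probe, at 1.81, 1.33 and 1.46 against 2.92, 2.88 and 2.72 (-1.31, SE 0.19, adjusted p = 0.00579), and not by its second probe, at -3.37, -4.58 and -3.09 against -3.70, -4.13 and -3.49 (0.09, SE 0.42, adjusted p = 0.897). Cd79b went the other way, at -1.59, -2.01 and -2.05 in BALB/c against -3.50, -3.47 and -3.14 (1.49, SE 0.21, adjusted p = 0.00486). The 2 chains of the same receptor unit thus had strain differences of opposite sign on their brightest probes, but both calls were lost by the methods' t-test, with the replicate block and without SPRET/EiJ sham array A or B. At an adjusted p under 0.05, which 18.8% of all probes passed, Pax5 was the only further member (1.41, SE 0.35, adjusted p = 0.0381). It was above background on 2 of 3 BALB/c and 0 of 3 SPRET/EiJ arrays, so no lower bound is given for its difference. The median of the 9 was -0.25, against -0.08 over all probes.

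Among related genes in sham tissue, Syk, a kinase that acts on Cd79a and Cd79b, was 5.88 higher in BALB/c (SE 0.24), and H2-Ob (-2.48, SE 0.23), Btla (-2.05, SE 0.31) and Lyn (-1.92, SE 0.29) were lower. Ccl19 (-1.91, SE 0.22) and Clec4g (-1.90, SE 0.28) of the stromal list were lower, and 0 of the T lymphocyte and plasma cell genes were called. All of the array's probes follow the reference genome, no SPRET/EiJ sequence was used here, and the part of mismatches in these differences was not tested.

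With LDIR, 2 members differed between the strains, against 5.67% of all probes. Cr2 was at -1.56, -1.53 and -1.32 in BALB/c and at 4.80, 3.71 and 3.93 in SPRET/EiJ (-5.62, SE 0.33, limma adjusted p = 0.000411), and the brighter Cd79a probe at 1.25, 1.70 and 1.74 against 3.70, 2.98 and 3.26 (-1.74, SE 0.28, adjusted p = 0.0122). Cd79b was not called, at -1.59, -1.65 and -1.74 against 5.74, -4.31 and -1.41, with an interval from -7.19 to 3.86. At an adjusted p under 0.05, which 11.1% of all probes passed, Cd22 was the only further member (-1.03, SE 0.24, adjusted p = 0.0415). Without SPRET/EiJ LDIR array A the differences were -5.29 for Cr2 and -1.55 for Cd79a, both still called, against 7.9% of all probes, and 1.20 for Cd79b, not called. The 2 strain comparisons share no arrays with each other, but each shares its arrays with the LDIR comparisons at 4 weeks.

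Slide and strain could be separated only in part. In both comparisons the SPRET/EiJ arrays were on the third slide and the BALB/c arrays on the first and second, and the only BALB/c arrays on the third slide were 8-week LDIR B, which stood apart, and C. On that slide Cr2 was at -2.22 on BALB/c array C, at 4.23 on BALB/c array B and at 3.66 to 4.80 on the 6 SPRET/EiJ arrays. When all 24 arrays were fitted together with slide as a block, 0 members were called and Cr2 differed by -1.95 in sham and -2.46 in LDIR tissue. With the slide block and without the 3 arrays that stood apart, Cr2 was called at -5.17 and -5.36 and Cd79a was not, at -1.15 and -1.32, nor was Cd79b, at 1.46 and 1.33.

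**Figure D4:**
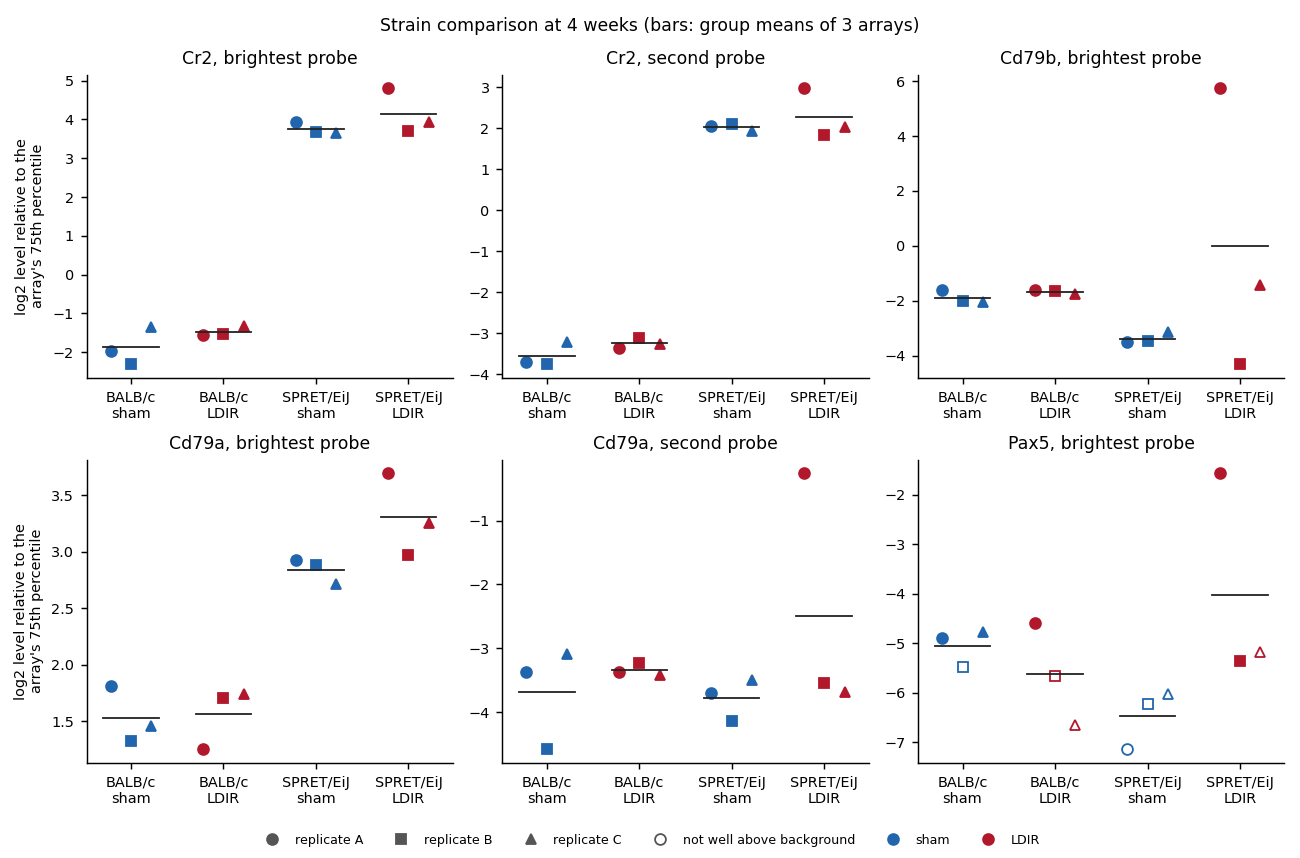
Level of Cr2, Cd79b, Cd79a and Pax5 probes (vertical axis, log2 intensity relative to the array's 75th percentile) in the 4 groups of 4 weeks (horizontal axis), with replicate letter as symbol, open symbols not well above background and bars at the mean of 3 arrays. Both Cr2 probes are higher on all 6 SPRET/EiJ arrays, while the brighter Cd79a probe separates the strains and the second does not.

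Sham BALB/c tissue was also compared between times, with 1 of 9 members called by the F test at an unadjusted p under 0.05, against 16.5% of all probes. Igj levels were -0.88, -2.12 and -1.90 in 2-week tissue, -0.01, -1.08 and -1.10 in 4-week tissue and 3.61, 0.29 and 0.44 in 8-week tissue, with means of -1.63, -0.73 and 1.45 (limma adjusted p = 0.190). Without 8-week array A it was still called, and Pou2af1 (limma adjusted p = 0.0765) and Cd22 (limma adjusted p = 0.0453) were as well, against 21.3% of all probes. That array was picked by the members' own values, so these p-values only describe. Pou2af1 was then higher at 8 weeks, at -2.96 and -3.60 against -4.90 to -4.18 in 2-week and -4.49 to -4.23 in 4-week tissue. Cd22 was lower, at 0.44 and 0.61 against 1.30 to 1.54 and 1.24 to 1.30, and was at 1.86 on array A. Time goes with the age of the mice and largely with slide, all 2-week arrays being on the first and all 8-week sham arrays on the second, and these cannot be told apart. The B-lineage list had 4 of 30 genes called (Blnk, Lyn, Plcg2 and Cxcr5, the last above background on 2 of the 9 arrays), the plasma cell list 2 of 10 (Pigr and Irf4), the T lymphocyte list 2 of 18 (Thy1 and Bcl11b) and the stromal list 2 of 9 (Cxcl13 and Cd209b).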

How the data were processed

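RNA of 24 mammary glands was hybridised singly to one-colour Agilent arrays by a commercial provider. The authors deposited scanner output whose processed intensity is background-subtracted and detrended by the scanner software, and log2 values that they normalized to the 75th percentile. Here the processed intensity of 59305 non-control spots was used, leaving out 3777 outlier spots over the 24 arrays (0 were saturated). It was put on the log2 scale, centred on each array's 75th percentile and averaged over spots of a probe. After centring, 99.8% of the authors' log2 values lay within 0.01 of these. No array had signal well above background for 7284 of 55681 probes. The deposited tables held 0 columns of unknown samples.

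Groups followed the labels. Comparisons were fitted with limma 3.58.1 in R 4.3.3 across all probes, tested on simulated data, with Benjamini-Hochberg adjustment over all probes. Calls used the methods' thresholds, an unadjusted p under 0.05 after LDIR or 0.001 between strains and over 1.5-fold. A gene was represented by its probe with the highest mean level. Folds with sham arrays raised used, per sham array, the higher of the lowest signal well above background and the probe's own. LDIR values were left as measured. The named genes are the members, fixed genes of 4 lists, the called genes of those lists with the largest changes (up to 3) and the 10 most alike genes. One gene named by this rule is not reported here. The members and lists were chosen with earlier results of these data known. Precision is limited by 3 arrays a group. The p-values set a difference against the spread between these arrays, which limma moderates with that of all probes.

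The labels give replicate letters and state no pairing, and the reported fits used none. At 2 weeks the deviations of same-letter arrays from group means correlated at 0.14, 0.44 and 0.10. Alternatives were: normexp correction of the background (offset 50), quantiles in place of the percentile, the log2 values of the authors, outlier spots included, a filter to detected probes, the t-test of the methods, a block for replicate or for slide, a joint fit of the 24 arrays, leaving out each array and, chosen after seeing the data, the 3 arrays that stood apart left out (with and without a slide block) and slide as a fixed block. Figures used matplotlib 3.10.9.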

Additional observations from a re-analysis of the deposited data

Results flagged for a closer look

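The measured LDIR differences of Pax5 at 4 weeks lay -3.01 apart on the log2 scale, BALB/c minus SPRET/EiJ, which is why Pax5 is listed. By the interaction term of limma (SE 1.23, adjusted p = 0.955) no strain difference was shown after adjustment. BALB/c LDIR arrays were at -4.60, -5.65 and -6.64 against sham at -4.90, -5.48 and -4.77, and SPRET/EiJ LDIR arrays at -1.57, -5.36 and -5.18 against sham at -7.14, -6.23 and -6.02. Of these 12 arrays 5 were well above background. Without SPRET/EiJ LDIR array A the difference was -1.78, and the second Pax5 probe, above background on 1 of the 12 arrays, gave -0.76 (adjusted p = 0.955).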

How the results depend on the processing

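The 3 arrays that stood apart were the same under every processing tried, with a gap of 3.53 as reported and 2.57 under normexp. The single calls after LDIR were the least stable results. As normexp adds an offset of 50 that shrinks log2 differences of dim probes, a call lost there alone does not show instability. At 2 weeks 1 member was called as reported, 0 under normexp, quantile normalization, the methods' t-test, the slide block or the joint fit of 24 arrays, and 2 (Ms4a1 and Pou2af1) among detected probes. Leaving out 1 array gave 0 to 2, the count changing without LDIR A, sham A or sham C. The median difference of 0.37 was 0.11 under normexp and 0.17 to 0.38 with 1 array left out. At 4 weeks the count of 1 was 0 under normexp, quantile normalization, either slide block or the joint fit, 2 among detected probes and 0 to 2 with 1 array left out. The median of 0.22 was then 0.055 under normexp, 0.10 with either slide block and 0.11 to 0.38 with 1 array left out. Among detected probes it was 0.30, without Pax5, which the filter removed. In SPRET/EiJ the count of 1 was 0 under normexp, quantile normalization or the methods' t-test. It was 0 to 3 with 1 array left out, 3 being without LDIR array B. The 0 among detected probes there is not a lost call, as the filter removed the called Pax5 before testing. The filter likewise removed Pax5 from the strain by LDIR test, which left 0 called. The strain by LDIR count of 1 was 0 under normexp, the t-test or the slide block, and 0 to 3 with 1 array left out. Without the 3 arrays that stood apart it was 2, that at 8 weeks 1 instead of 0, that over all times 2 instead of 0, and that of sham tissue over time 3 instead of 1. The last was 0 with the slide block, 3 with slide as a random block and 1 to 3 with 1 array left out.

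Between strains Cr2 was called under every alternative but the slide block over 24 arrays, which left 0 members in sham and 0 in LDIR tissue. Of 3 members in sham tissue 1, Cr2, was called by the methods' t-test, in the joint fit and with the slide block without the 3 arrays, and 1 to 3 with 1 array left out. Of 2 in LDIR tissue 1, Cr2, was called in these settings and under quantile normalization, and 1 to 2 with 1 array left out. The sham median of -0.25 was -0.069 under normexp, -0.41 under quantile normalization and 2.68 with the slide block. It was -0.093 with that block without the 3 arrays and -0.55 to -0.16 with 1 array left out. Among detected probes it was -1.16, but over fewer members, as the filter removed Ms4a1, Pax5 and Blk. With the replicate letter as a block, the count fell from 1 to 0 in SPRET/EiJ, from 3 to 1 between strains in sham and from 2 to 1 in LDIR tissue and was 1 at 2 weeks. The letters were not taken to pair the arrays in the reported fits, and outside 2 weeks their correlations ran from -0.57 to 0.54. The cause of these changes was not tested.

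Over all probes the counts of calls were 1699 at 2 weeks, 2690 at 4 weeks and 1230 in SPRET/EiJ, against 282, 599 and 135 under normexp, and 909 at 2 weeks by the methods' t-test. Of the called probes 1160, 1888, 94 and 866 were higher with LDIR at 2, 4 and 8 weeks and in SPRET/EiJ, and under quantile normalization 770 of 1278, 1285 of 2482, 458 of 926 and 439 of 1071. Signals near background limit Ms4a1, Pax5 and Blk, and 3 arrays a group limit every comparison.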
